A study of Mus musculus with 4 samples.

Results

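The regions described here are the divergent promoters of coding gene pairs, stretches of open chromatin between 2 protein-coding genes that lie on opposite strands and are transcribed away from each other. Pairs were taken from the curated mouse RefSeq transcripts (NM records) of the mm10 build, with transcription start sites (TSSs) 1 kb or less apart, and a region was kept when it overlapped the span from one TSS to the other and was called in at least 2 of the 4 libraries. On the autosomes, 907 pairs met the rule, and they hold 1801 genes, 9.00% of the 20021 autosomal genes with an NM transcript. A further 25 pairs lie on chromosome X or Y, where the authors removed the reads before peak calling. Of the 51742 regions called in at least 2 libraries, 876 lay in these spans. A total of 861 of the 907 pairs (94.9%) held at least 1 region, and 46 held none. In 25 pairs the span held 2 regions, and 10 regions lay in the spans of 2 pairs, so neighbouring members are not all independent.

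Chromatin accessibility was measured by ATAC-seq, which marks open DNA by where a transposase can insert adaptors, in sorted large peritoneal macrophages (LPMs), the resident phagocytes of the peritoneal cavity. The mice were 9 weeks old and on the C57BL/6 background. Replicates 1 and 3 came from Rxrab fl/fl mice, which carry loxP-flanked alleles of the retinoid X receptor genes Rxra and Rxrb and no Cre. Replicates 1 and 2 came from LysMCre+ Rxrab fl/fl mice, which carry the same floxed alleles and a Cre recombinase driven by the lysozyme M promoter, active in myeloid cells. These groups are called control and LysMCre+ from here on. Each library was made from 40000 sorted cells, and all 4 are labelled as library batch 1. The study compared the genotypes to find which loci change accessibility in LPMs when RXRs are lost. Samples of this assay that failed to cluster were excluded by the authors, and nothing states which libraries share a mouse, so the spread between libraries may be understated and may be technical.

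A divergent promoter serves a pair of genes from one stretch of open DNA. Such promoters are usually rich in CpG dinucleotides, lack a TATA box and belong to genes that most cells use, among them genes of DNA repair, the cell cycle, mitochondria and chromatin. RNA polymerase is loaded on each strand separately, with a nucleosome-depleted stretch between both start sites. In macrophages these promoters stand apart from the distal enhancers, which are chosen by lineage factors such as PU.1 and, in LPMs, GATA6.

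Sequences of the best known pairs are printed first, since the rest of the text refers to them, on the plus strand of mm10 and 5′ to 3′. Each runs from 20 bases before the TSS of the minus-strand gene to 20 bases after the TSS of the plus-strand gene, except for Atm/Npat, whose span is longer and which is shown as 300 bases around the strongest summit. Capitals mark matches, on either strand, to the GC box (GGGCGG, bound by SP1 and related factors), the CCAAT box (CCAAT, bound by NF-Y), the ETS motif (CCGGAAG), the NRF1 motif, the E2F motif (TTCCCGC), the YY1 motif (AAGATGGC) and the E-box (CACGTG), and a longer run of capitals is a pair of matches that touch or overlap. Slc39a7/Rxrb (chr17:34031670-34031832) is shown because Rxrb is one of the targeted genes. The others are textbook divergent pairs: Hspd1/Hspe1 (chr1:55087912-55088168), Mrps12/Sars2 (chr7:28741801-28741988), Psmb9/Tap1 (chr17:34187310-34187576) and Atm/Npat (chr9:53536710-53537009).
Slc39a7/Rxrb: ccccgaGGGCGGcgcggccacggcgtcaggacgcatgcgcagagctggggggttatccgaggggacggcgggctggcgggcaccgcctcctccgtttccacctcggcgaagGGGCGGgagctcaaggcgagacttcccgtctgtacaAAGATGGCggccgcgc
Hspd1/Hspe1: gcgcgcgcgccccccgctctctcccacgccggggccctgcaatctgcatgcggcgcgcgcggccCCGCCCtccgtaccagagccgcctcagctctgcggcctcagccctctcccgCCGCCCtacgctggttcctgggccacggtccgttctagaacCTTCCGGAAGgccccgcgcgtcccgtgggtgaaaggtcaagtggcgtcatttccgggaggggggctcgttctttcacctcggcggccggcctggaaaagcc
Mrps12/Sars2: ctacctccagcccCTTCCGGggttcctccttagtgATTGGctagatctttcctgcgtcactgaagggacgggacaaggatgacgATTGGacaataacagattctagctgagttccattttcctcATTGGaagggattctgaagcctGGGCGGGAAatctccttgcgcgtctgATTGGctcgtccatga
Psmb9/Tap1: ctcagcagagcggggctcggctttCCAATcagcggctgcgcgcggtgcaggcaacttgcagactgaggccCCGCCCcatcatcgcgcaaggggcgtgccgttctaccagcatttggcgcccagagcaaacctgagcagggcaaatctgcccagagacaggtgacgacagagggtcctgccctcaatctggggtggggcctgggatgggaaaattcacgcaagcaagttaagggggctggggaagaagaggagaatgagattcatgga
Atm/Npat: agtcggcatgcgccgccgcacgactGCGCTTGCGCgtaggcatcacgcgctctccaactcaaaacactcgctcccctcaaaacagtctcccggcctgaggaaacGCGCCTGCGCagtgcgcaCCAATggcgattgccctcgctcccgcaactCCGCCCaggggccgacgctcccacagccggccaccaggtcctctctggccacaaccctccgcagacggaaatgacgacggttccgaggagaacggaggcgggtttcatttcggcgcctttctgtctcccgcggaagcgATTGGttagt

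The 5 members with the highest mean fold enrichment over the 4 libraries follow in the same form: Rnft2/Spring1 (chr5:118245005-118245247), Arl16/Hgs (chr11:120467580-120467655), Npc2/Isca2 (chr12:84773092-84773290), Rpa3/Umad1 (chr6:8259121-8259308) and Swi5/Golga2 (chr2:32288049-32288346). In Arl16/Hgs the last run of capitals is a match to the interferon-stimulated response element (ISRE).
Rnft2/Spring1: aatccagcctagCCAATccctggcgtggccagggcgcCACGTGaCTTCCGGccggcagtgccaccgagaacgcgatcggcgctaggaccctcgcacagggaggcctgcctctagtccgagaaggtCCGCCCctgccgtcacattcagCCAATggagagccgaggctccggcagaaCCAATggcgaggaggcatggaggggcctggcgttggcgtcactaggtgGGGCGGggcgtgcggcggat
Arl16/Hgs: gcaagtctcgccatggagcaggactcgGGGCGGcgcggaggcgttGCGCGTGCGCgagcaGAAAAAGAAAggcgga
Npc2/Isca2: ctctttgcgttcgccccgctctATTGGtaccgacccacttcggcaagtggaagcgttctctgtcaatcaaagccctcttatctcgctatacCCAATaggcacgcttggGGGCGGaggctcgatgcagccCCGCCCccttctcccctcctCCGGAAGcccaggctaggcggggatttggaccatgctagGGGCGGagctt
Rpa3/Umad1: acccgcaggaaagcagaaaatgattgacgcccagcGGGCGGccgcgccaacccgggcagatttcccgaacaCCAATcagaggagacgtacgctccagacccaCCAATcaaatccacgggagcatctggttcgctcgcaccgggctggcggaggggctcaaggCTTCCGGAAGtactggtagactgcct
Swi5/Golga2: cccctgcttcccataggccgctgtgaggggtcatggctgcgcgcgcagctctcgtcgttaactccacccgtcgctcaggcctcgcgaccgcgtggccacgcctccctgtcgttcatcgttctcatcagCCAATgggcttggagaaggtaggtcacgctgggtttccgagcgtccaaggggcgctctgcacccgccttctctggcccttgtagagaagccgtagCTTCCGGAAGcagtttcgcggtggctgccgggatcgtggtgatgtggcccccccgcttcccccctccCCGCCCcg

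All 5 printed stretches hold at least 1 GC box. Rnft2/Spring1, Npc2/Isca2, Rpa3/Umad1 and Swi5/Golga2 each hold a CCAAT box and an ETS match as well. The stretch of Arl16/Hgs, whose TSSs are 35 bp apart, holds an NRF1 match and neither of these. It is only 76 bases long, against 188 to 298 for the others. In Arl16/Hgs and Npc2/Isca2 the strongest summit lies outside the printed stretch.

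The peak lists differed in length. The deposited lists hold 38048 and 16097 peaks for control replicates 1 and 3, then 65421 and 55581 for LysMCre+ replicates 1 and 2. The lowest local background was 1.97, 1.06, 1.33 and 1.08 tags per 200 bp in the same order. By lowest background alone, control replicate 3 was thus near LysMCre+ replicate 2. Its tags at called regions were fewer. Over all regions called in all 4 libraries, the median number of tags at the summit was 97, 20, 99 and 65 in the same order. Control replicate 3 stands apart by its short list and its few tags, and values without it are given beside the main counts. Promoters of the LPM markers were open as labelled, with 5 or 6 of 7 called in each library (Gata6, Icam2, Timd4, Cd14 and Adgre1 in all 4, Csf1r in none). None of the markers of B cells, T cells or mesothelium had a called promoter. Of 5 markers of small peritoneal macrophages and monocytes, 1 was called in each control library, while LysMCre+ had 4 and 3 called, and of 5 granulocyte and mast cell markers S100a8 alone was called, in every library but control replicate 3. Since a bulk library cannot tell fewer open cells from less cutting per cell, each value below is an average over the sorted cells.

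Divergent pairs were open in nearly every library. A called peak overlapped 850 of 907 pairs (93.7%) in control replicate 1 and 713 (78.6%) in replicate 3. In LysMCre+ the counts were 862 (95.0%) in replicate 1 and 853 (94.1%) in replicate 2. The library with the shortest list thus still held a peak at most pairs. At the level of single start sites, 89.1%, 70.3%, 90.8% and 88.5% of the 1801 TSSs of divergent pairs lay inside a peak in the same order of libraries. The shares were 43.2%, 29.2%, 49.5% and 46.3% for the 17022 TSSs of genes with no divergent partner, called one-gene promoters from here on. They were 70.5%, 56.2%, 75.6% and 69.7% for the 577 coding genes whose divergent partner is a curated non-coding RNA gene. In each of the 4 libraries the coding pairs were the highest class and the one-gene promoters the lowest.

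Base composition also differed between these classes. The CpG ratio, which is the observed over the expected number of CpG dinucleotides, was over 0.6 in the 300 bp around 88.4% of the TSSs of divergent pairs and around 49.5% of those of one-gene promoters. Among CpG-rich TSSs alone, 94.3%, 75.4%, 95.3% and 93.1% of those in divergent pairs lay in a peak, against 74.0%, 52.5%, 82.0% and 76.4% of those at one-gene promoters. Divergent pairs were thus the higher class in each library among CpG-rich TSSs too. This comparison was added after the first shares had been seen, and both classes are counts over loci of the same libraries, so no test was made.

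**Figure D1:**
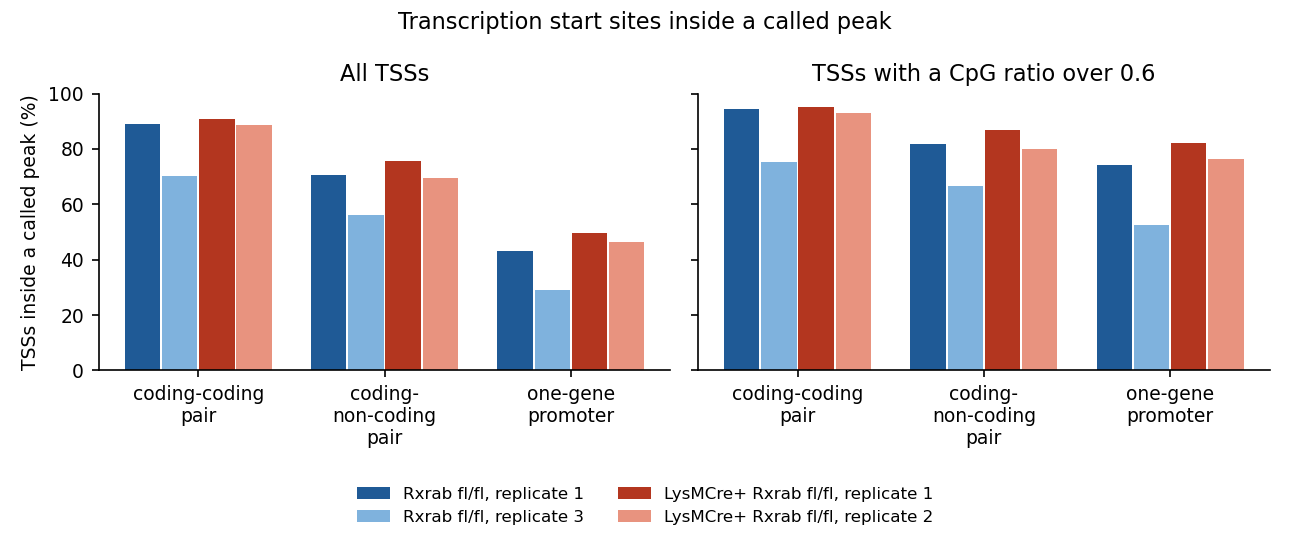
Share of TSSs inside a called peak (y axis, %) for coding-coding divergent pairs, coding genes with a divergent non-coding RNA gene and one-gene promoters, with 1 bar per library; the left panel holds all TSSs and the right panel those with a CpG ratio over 0.6. In each library the coding-coding pairs are highest, from 70.3% to 90.8% on the left and from 75.4% to 95.3% on the right, and control replicate 3 is the lowest library of every class.

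Of the 876 regions, 729 (83.2%) were called in all 4 libraries, against 29.4% of all 51742 regions. The share was 81.7% of 426 regions at coding genes with a divergent non-coding RNA gene, close to that of the members. At one-gene promoters it was 66.5% of 8216 regions. Another 134 members (15.3%) were called in every library but control replicate 3, against 34.9% of all regions. These call patterns left 13 regions. Only 7 (0.799%) were called in both LysMCre+ libraries and neither control library, a pattern held by 31.2% of all regions. No member was called in both control libraries and neither of the others, against 0.0618% of all regions. The members seen only in LysMCre+ were weak. The strongest, Wdr54/1700003E16Rik (chr6:83156226-83156715), had a fold enrichment of 10.2 in replicate 1 and 7.64 in replicate 2. Timm9/2700049A03Rik (chr12:71136300-71136807), of which Timm9 encodes a chaperone of the mitochondrial intermembrane space, had 8.85 and 6.59. Eef1akmt3/Mettl1 (chr10:127040888-127041562) had 6.19 and 6.22, and Ush1g/Otop2 (chr11:115322320-115322682) had 7.14 and 5.08. Their pileups, the number of overlapping tags at the summit, were 16 to 32. In the first 2 of these pairs the TSSs lie 25 and 173 bp apart and the region was the only one. In the other 2 the region lay at one end of a span of 538 or 612 bp. It covered the TSS of Eef1akmt3 alone and that of Otop2 alone. The Mettl1 side of Eef1akmt3/Mettl1 held a second region, called in 3 libraries.

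The pattern depended on list length. When the same number of peaks, 16097, was taken from each library by lowest q value, a peak overlapped 84.3% and 78.6% of the pairs in control and 73.8% and 69.6% in LysMCre+, so that both control libraries lay above both others. With lists of that length, 62 of 745 members (8.32%) were called in both control libraries alone, against 9.16% of all 17576 regions. Only 2 members (0.268%) were called in both LysMCre+ libraries alone, against 9.92% of all regions. Of the TSSs of one-gene promoters, 32.5% and 29.2% then lay in a peak in control and 30.5% and 28.5% in LysMCre+, against 80.3%, 70.3%, 70.5% and 65.6% of the TSSs of divergent pairs. For single TSSs the genotypes overlapped in both classes, since control replicate 3 lay just below LysMCre+ replicate 1.

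The other 6 members had neither pattern, and they are named after their values were seen. Parpbp/Nup37 (chr10:88146720-88147173), Spaca9/Ak8, Zfp661/Mrps5, Atpif1/Dnajc8 and Zwilch/Rpl4 were called in replicate 1 of each genotype, with fold enrichments of 4.38 to 12.9 in control and 4.72 to 11.6 in LysMCre+. Atp6v1a/Naa50 (chr16:44139593-44139978) was called in every library but LysMCre+ replicate 2, at 5.19, 5.05 and 3.25. This region covered the Naa50 TSS alone. A second region of the pair, on the side of Atp6v1a, was called in all 4 libraries.

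Pairs without a region were few, and 43 of the 46 had no peak in any library while 3 had a peak in 1 library. Several belong to tissues other than macrophages: Col4a4/Col4a3 encodes collagen chains of basement membranes, Abcg5/Abcg8 the sterol transporter of liver and gut, Duox2/Duoxa2 an oxidase of the thyroid and its maturation factor, and Plcz1/Capza3 proteins of sperm. Sgce/Peg10 and Peg3/Usp29 are imprinted pairs, read from one parental allele, and had no peak in any library. The histone pairs, H2bc23/H2ac23, H2ac24/H4bc24 and H2bc1/H2ac1, also had none. The authors removed reads of low mapping quality, which can weigh on near-identical gene copies. Its part at these pairs was not tested. The list is not made of such genes alone. It also holds Rad51c/Tex14 and Pinlyp/Xrcc1, of which Rad51c and Xrcc1 are DNA repair genes. Usp37/Plcd4 had no peak either, while another start site of Usp37, at Usp37/Cnot9, held a region called in all 4 libraries. These pairs were chosen as examples after the list was seen.

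The paired TSSs were close together, with a median distance of 149 bp and quartiles of 74.5 and 296 bp. One region covered both TSSs in 776 of the 861 pairs with a region (90.1%). Members were wide, with a median of 797 bp, against 702 bp for the 8216 regions at one-gene promoters and 463 bp for all regions called in at least 2 libraries. The widest member spanned 1784 bp and the narrowest 227 bp. With TSSs 100 bp or less apart the median width was 776 bp, with TSSs 101 to 200 bp apart 805 bp, and with TSSs 201 to 500 bp apart 852 bp. One region covered both TSSs in all 297, 222 of 226 (98.2%) and 217 of 236 (92.0%) of these links between a pair and a region. Between 501 and 1000 bp the picture changed, with a median width of 718 bp and 31.5% of 127 links covering both TSSs, and 22 of the 25 pairs with 2 regions lay in this class.

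The strongest summit, the base with the most cuts, lay between the paired TSSs in 477 of 738 links called in all 4 libraries (64.6%). Its median distance from the midpoint of the pair was 58.5 bp, and 75.3% of summits lay within 150 bp of it. Summits lay on the side of the minus-strand gene in 389 links and of the plus-strand gene in 345, with 4 at the midpoint. The share between the TSSs was 42.1% with TSSs 100 bp or less apart and 71.4%, 77.3% and 76.0% in the 3 wider classes. The summit kept its place between libraries. Over the 4 libraries its range had a median of 56.0 bp, and it was 19 bp between both control libraries, 14.5 bp between both LysMCre+ libraries and 17 bp between replicate 1 of each genotype, a value between those of the replicate pairs. Taken library by library, 65.6% and 64.6% of summits lay between the TSSs in control and 59.5% and 60.6% in LysMCre+.

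**Figure D2:**
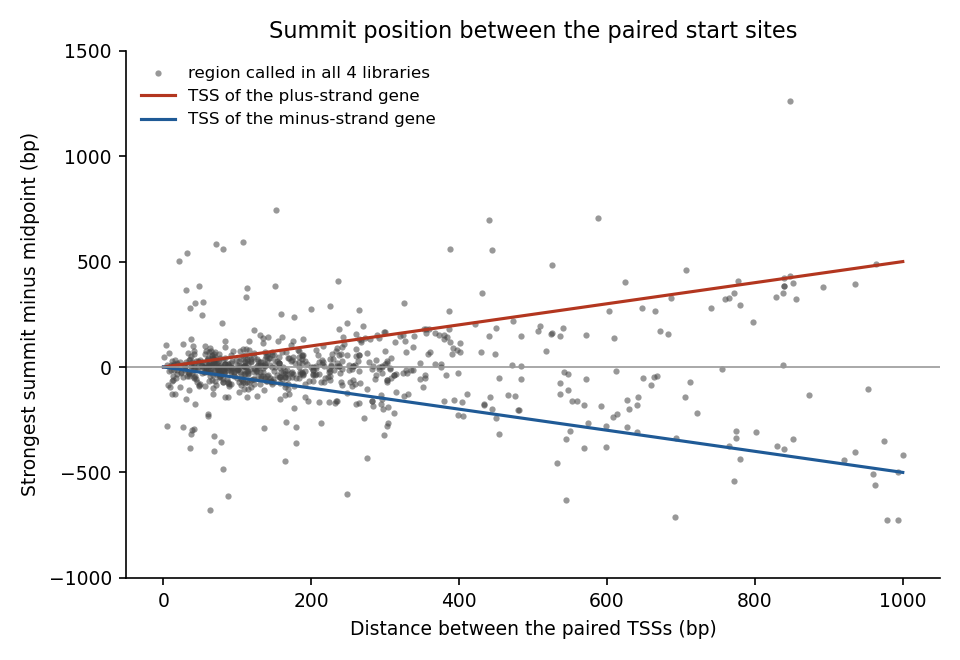
Position of the strongest summit relative to the midpoint of the paired TSSs (y axis, bp) against the distance between the TSSs (x axis, bp), with 1 point for each of the 738 links between a pair and a region called in all 4 libraries; the sloping lines mark the paired TSSs. Most points lie near the midpoint and 64.6% lie between the lines, while above 500 bp they gather toward one TSS or the other.

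The named pairs show the same range. In Mrps12/Sars2, which pairs a mitochondrial ribosomal protein with the mitochondrial seryl-tRNA synthetase, the summit lay 0.5 bp from the midpoint. In Atm/Npat, which pairs the kinase of the DNA damage response with an activator of histone genes, it lay 1 bp from the midpoint, between TSSs 376 bp apart. In Psmb9/Tap1, which pairs an immunoproteasome subunit with the peptide transporter of antigen presentation, it lay 287 bp toward Tap1 and so beyond the Tap1 TSS. In Brca1/Nbr1, which pairs a DNA repair gene with an autophagy receptor, it lay 744 bp toward Nbr1 in a region 1349 bp wide. Gart/Son, a purine synthesis enzyme and a splicing factor with TSSs 852 bp apart, held 1 region at each TSS (chr16:91646861-91647347 and chr16:91647546-91648021).

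Base composition and short motifs were read in the 300 bp around the strongest summit of 859 members, leaving out chromosome 18. The median GC content was 63.7%, against 65.0% at one-gene promoters and 51.3% over all regions. The median CpG ratio was 0.858, against 0.814 and 0.302, and 92.7% of members had a ratio over 0.6, against 80.2% and 23.7%. Of the motifs searched, ETS differed from one-gene promoters by the most percentage points, with a match in 31.1% of members, against 18.1% of one-gene promoters, 22.7% of coding genes with a divergent non-coding RNA gene and 6.61% of all regions. ETS factors such as GABPA bind it at housekeeping promoters. The NRF1 motif, the site of a regulator of mitochondrial genes, matched 16.1%, 10.1% and 2.59% of members, one-gene promoters and all regions. CCAAT boxes matched 45.3%, 37.2% and 31.7% in the same order.

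GC boxes did not separate members from one-gene promoters, with 73.8% against 72.0%, although 26.0% of all regions held one. The YY1 motif matched 7.68% of members and 4.83% of one-gene promoters, and the E2F motif of cell cycle genes 12.5% and 9.30%. The ZNF143 motif, rare overall at 0.171% of all regions, matched 1.75% of members and 0.687% of one-gene promoters. E-boxes matched 10.6% and 10.7%, and the cyclic AMP response element (TGACGTCA) 4.54% and 3.38%. The TATA box (TATAAA) was rarer in members (2.79%) than at one-gene promoters (3.83%) and over all regions (9.05%). These are matches to exact letters on both strands, and a match is not evidence that a factor is bound.

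Motifs of macrophage factors were scarce in members. The GATA motif (AGATAA) matched 3.26% of members, 3.43% of one-gene promoters and 10.2% of all regions. The AP-1 motif (TGANTCA) matched 2.68%, 4.36% and 15.5%, and the PU.1 motif (GAGGAAGT) 3.03%, 3.64% and 10.8%. The ISRE matched 2.44%, 2.58% and 4.68%. Of the half-site repeats that RXR dimers bind, the repeat with 1 base between the half-sites (DR1) matched 1 member (0.116%). The repeat with 5 bases between them (DR5) matched none. Among all 50295 regions, 21 (0.0418%) and 14 (0.0278%) held them. Exact matches to these long repeats were too rare in every class for members to be called poorer in them.

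**Figure D3:**
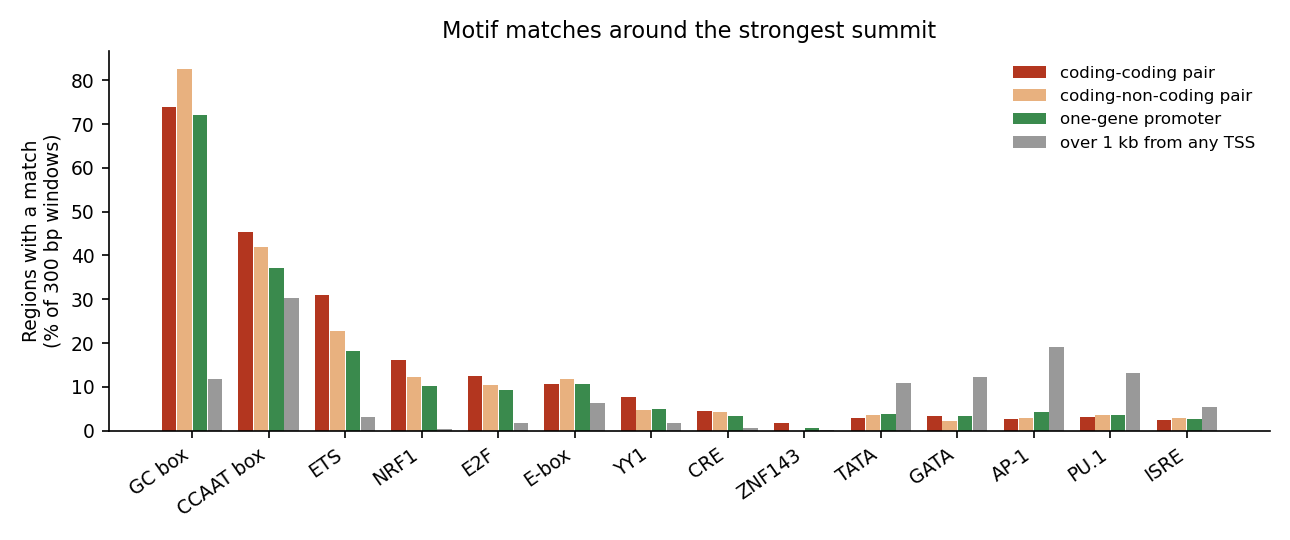
Share of 300 bp windows around the strongest summit that hold at least 1 match on either strand (y axis, %) for 14 motifs, in coding-coding divergent pairs, coding genes with a divergent non-coding RNA gene, one-gene promoters and regions over 1 kb from any TSS. ETS matches fall from 31.1% in coding-coding pairs to 18.1% at one-gene promoters and 3.09% in distal regions, while AP-1 matches rise from 2.68% to 19.1% in distal regions.

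Fold enrichment, the tags at the summit over the local background with 1 added to each, was compared among regions called in all 4 libraries. The median of the 729 members was 17.9 and 10.1 for control replicates 1 and 3, then 16.8 and 13.3 for LysMCre+ replicates 1 and 2. At 5461 one-gene promoters it was 16.5 and 8.88, and 16.2 and 12.7. Members were thus higher in every library, by 0.12 and 0.18 in median log2 fold enrichment in control and by 0.05 and 0.06 in LysMCre+. On the summit pileup these differences were 0.29 and 0.26 in control and 0.07 and 0.0 in LysMCre+. With either measure the lead of the divergent promoters was smaller in both LysMCre+ libraries than in both control libraries. Members with a CCAAT box were more enriched than those without, at medians of 19.4, 12, 18.1 and 14.6 against 16.3, 8.82, 15.2 and 11.8 in the 4 libraries.

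The most open divergent promoter was Rnft2/Spring1 (chr5:118244788-118245413), of which Spring1 encodes a regulator of the sterol-sensing SREBP pathway. Its fold enrichment was 28.1 and 18 in control and 32.0 and 25.7 in LysMCre+, so the genotypes overlapped. Arl16/Hgs (chr11:120467136-120467886), of which Hgs sorts receptors into endosomes, had 27.0 and 16.1, and 29.8 and 27.9. Npc2/Isca2 (chr12:84772772-84773417) joins the lysosomal cholesterol carrier Npc2 with an iron-sulfur cluster factor. It had 27.8 and 20.8 in control and 25.5 and 23.0 in LysMCre+. Rpa3/Umad1 (chr6:8258908-8259678), of which Rpa3 encodes a subunit of replication protein A, had 28.9 and 20.7, and 26.9 and 20.8. Swi5/Golga2 (chr2:32287907-32288768), a recombination factor and a Golgi matrix protein, had 28 and 18.1, and 29.3 and 22.3. In all 5, control replicate 3 was the lowest library.

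At the other end, Brd2/H2-DMa (chr17:34122276-34122885) was the weakest member called in all 4 libraries. Brd2 encodes a chromatin reader and H2-DMa a chaperone that loads peptide on MHC class II. Its fold enrichment was 4.39 and 3.86 in control and 2.63 and 3.36 in LysMCre+, without overlap, although the pileup of 90, 21, 62 and 53 tags was not low, since the local background was 19.7, 4.70, 23.0 and 15.1 tags. Lig4/Abhd13 (chr8:9977624-9977991), of which Lig4 seals DNA ends, had 6.60 and 4.84, and 4.19 and 3.93. Slc30a7/Extl2 (chr3:116007215-116007900), of which Slc30a7 moves zinc into the secretory pathway, had 5.15 and 3.96, and 6.07 and 5.82.

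To compare the genotypes, the 15199 regions with a call in every library were fitted together with limma, after each library's median log2 fold enrichment had been subtracted. The call needed both a log2 change past 1 and an adjusted p (Benjamini-Hochberg) under 0.05. No divergent promoter passed in either direction (0 of 729), while 7 of 15199 regions (0.0461%) were called higher in control and 6 (0.0395%) higher in LysMCre+. At an unadjusted limma p under 0.05, 154 members (21.1%) were lower in LysMCre+, against 13.1% of all regions, and 16 (2.19%) were higher, against 8.87%. The lowest adjusted p of a member from limma was 0.0611. Without control replicate 1, 27 members (3.7%) passed as higher in control, near the 3.55% of all regions, and 3 (0.412%) as higher in LysMCre+, against 1.61%. Without control replicate 3 the counts were 1 (0.137%, against 0.263% of all regions) and 0 (against 0.632%). The members as a class lay below the rest, with a median log2 change of −0.24, quartiles of −0.43 and −0.02 and extremes of −1.04 and 1.04, against a median of −0.09 over all regions and −0.16 over one-gene promoters. Coding genes with a divergent non-coding RNA gene had the same shift, with −0.25 over 348 regions. Of the 729 members, 500 (68.6%) lay below the median of all regions. The summed level of the small peritoneal macrophage markers cannot be read from peak lists. Their called promoters, 1 and 1 of 5 against 4 and 3 of 5, differed between the genotypes, and so did the length of the peak lists. Of these markers, Irf4 was called in all 4 libraries and Ccr2 in none. The LPM marker Itgam was also called in both LysMCre+ libraries and neither control library. The part of the small macrophage markers in the changes above was not tested.

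In 381 members (52.3%) both control libraries lay above both LysMCre+ libraries after centring, against 32.9% of all regions. The opposite held for 75 members (10.3%), against 22.3% of all regions. With no centring, which moves the median of all regions from −0.09 to 0.28 on the log2 scale, 27 members (3.7%) lay higher in both control libraries, against 3.57% of all regions, and 55 (7.54%) lay higher in both LysMCre+ libraries, against 20.7%. Of the members that did not overlap, 83.6% were thus higher in control with centring and 32.9% without it, beside 59.5% and 14.7% of all such regions. The direction of a member's own change therefore rests on the scaling. The members' median lay 0.15 below that of all regions, a gap that centring cannot change, since it shifts every region of a library alike. Without control replicate 3, the remaining control library lay above both others in 432 members (59.3%), against 40.4% of all regions, and below both in 141 (19.3%), against 36.0%. With 2 libraries a genotype, no two-sided exact permutation p can fall under 0.33.

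On the summit pileup, scaled by each library's median, 68 members (9.33%) passed the same limma threshold as higher in control, against 4.98% of 15196 regions, and 2 (0.274%) as higher in LysMCre+, against 2.49%. Of 348 regions at coding genes with a divergent non-coding RNA gene, 29 passed as higher in control and 2 as higher in LysMCre+. Of 5459 regions at one-gene promoters, 254 and 56 passed. The median log2 change was −0.37 over the members and −0.32 over coding genes with a divergent non-coding RNA gene. It was −0.18 over one-gene promoters and −0.10 over all regions. The shift was thus not particular to coding pairs. Both control libraries lay above the others in 433 members (59.4%), against 36.9% of all regions, and below them in 80 (11.0%), against 25.2%. Without control replicate 3 the counts were 61 (8.37%, against 4.57% of all regions) and 2 (0.274%, against 4.05%). Without LysMCre+ replicate 2 they were 2 (0.274%, against 0.803%) and 0 (against 0.25%), so that the share of members called higher in control no longer exceeded that of all regions. The pileup calls thus rest on that library, and the 2 that were still called without it were Xab2/Pet100 and Atp5pb/Wdr77. Of the named members, Nop16/Higd2a (−0.82), Mcm4/Prkdc (−0.98) and S100pbp/Yars (−0.90) were also no longer called on the pileup with control replicate 3 left out, and Nop16/Higd2a, S100pbp/Yars and Haghl/Ccdc78 with LysMCre+ replicate 1 left out. Pileup and fold enrichment differ in the local background.

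**Figure D4:**
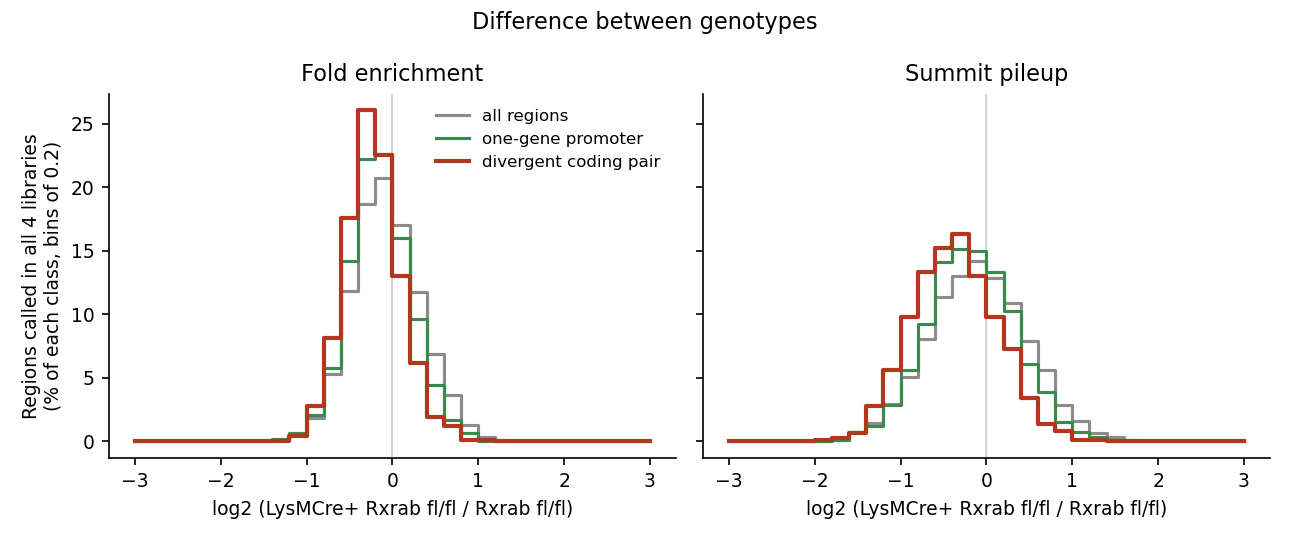
Distribution of the log2 difference between genotypes (x axis, LysMCre+ over control, bins of 0.2) in regions called in all 4 libraries (y axis, % of each class), for fold enrichment on the left and summit pileup on the right, each scaled by the library median. Divergent coding pairs have medians of −0.24 and −0.37 and lie to the left of all regions, whose medians are −0.09 and −0.10.

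By distance between the TSSs, the median log2 change in fold enrichment was −0.12 for regions of pairs with TSSs 100 bp or less apart and −0.26, −0.29 and −0.28 in the 3 wider classes. On the pileup, 16 of 226 regions (7.08%), 14 of 202 (6.93%), 31 of 208 (14.9%) and 7 of 95 (7.37%) passed the threshold as higher in control in the same order. The class with TSSs 201 to 500 bp apart thus held the largest share. Members with an NRF1 match had a median pileup change of −0.58, and those without one −0.33, and 17 of 121 (14.0%) against 48 of 595 (8.07%) passed in that direction. Members with and without an ETS match had −0.41 and −0.33. NRF1 was not alone in this. Of members with a cyclic AMP response element, 6 of 37 (16.2%) passed, with a median of −0.67. With a PU.1 match 5 of 23 passed (21.7%, median −0.57), with a GATA match 4 of 21 (19.1%) and with an E-box 10 of 74 (13.5%). With a CCAAT box the share was lower, at 7.84% against 10.3% without one. Several of these groups are small, and none was tested.

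The largest changes in fold enrichment toward control among members whose genotypes did not overlap were in 4 pairs. Ift80/Smc4 joins a ciliary transport gene with a condensin subunit that compacts chromosomes in mitosis. Its fold enrichment was 14.2 and 6.77 in control and 7.64 and 4.96 in LysMCre+, which overlap before centring and not after it. The log2 change was −1.04 ± 0.21 (SE, n = 2 libraries a genotype, limma adjusted p = 0.0611). Hnrnpa2b1/Cbx3 (chr6:51469254-51470565) joins an RNA-binding protein with the heterochromatin protein HP1 gamma and is known as a ubiquitously open element. The region covered the Hnrnpa2b1 TSS and ended before the Cbx3 TSS. Its fold enrichment was 17.2 and 12.2 in control and 9.28 and 8.94 in LysMCre+, so the genotypes did not overlap even before centring (−1.03 ± 0.23, limma adjusted p = 0.0629).

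Mepce/Zcwpw1 (chr5:137786106-137787550), of which Mepce caps the 7SK RNA that holds back transcription elongation, had 14.5 and 13.4 in control and 10.5 and 7.40 in LysMCre+, again without overlap. Its change was −1.03 ± 0.26 in fold enrichment (limma adjusted p = 0.0755) and −1.23 ± 0.26 on the pileup (limma adjusted p = 0.0277). Without control replicate 3 the change in fold enrichment was −0.61, and that of Nop16/Higd2a below was −0.84. Nop16/Higd2a (chr13:54589945-54591091) joins a nucleolar protein with an assembly factor of the respiratory chain. It had 17.8 and 11.0, and 10.4 and 8.21, a change of −0.96 ± 0.21 (limma adjusted p = 0.0629). Its pileup was 122 and 33 tags in control and 62 and 53 in LysMCre+, which after scaling gave −1.01 ± 0.25 (limma adjusted p = 0.0370).

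The largest changes toward LysMCre+ were in P3h4/Fkbp10, Slf1/2210408I21Rik, Lsr/Fam187b and Asphd1/Sez6l2. P3h4 and Fkbp10 both serve collagen processing in the endoplasmic reticulum. Their region (chr11:100414206-100414940) covered the P3h4 TSS alone, and its fold enrichment was 11.1 and 3.88 in control and 16.5 and 18.4 in LysMCre+. Both LysMCre+ libraries were higher, by 1.04 ± 0.25 in log2 fold enrichment (limma adjusted p = 0.0667) and by 1.40 ± 0.32 on the pileup (limma adjusted p = 0.0317). Slf1/2210408I21Rik (chr13:77134963-77135871), of which Slf1 brings the SMC5/6 complex to DNA damage, had 14.0 and 4.37, and 18.4 and 18.3 (0.86 ± 0.26, limma adjusted p = 0.0946). With control replicate 3 left out this change was 0.50, and that of P3h4/Fkbp10 was 0.76. Lsr/Fam187b (chr7:30973709-30974388), whose region covered the Fam187b TSS alone, had 10.0 and 4.78, and 15.7 and 15.1. Asphd1/Sez6l2 (chr7:126949677-126950147), whose region lay between the TSSs and covered neither, had 8.38 and 4.55, and 17.5 and 10.7. In all 4 pairs control replicate 3, the library with the shortest peak list, was the lowest, with pileups of 7 to 10 tags.

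The sequences between the TSSs of 2 of these pairs are printed as above, to set pairs with changes in opposite directions side by side: Nop16/Higd2a (chr13:54590054-54590251) and Slf1/2210408I21Rik (chr13:77135448-77135556). Nop16/Higd2a holds 1 GC box, and Slf1/2210408I21Rik holds an ETS and an E2F match.
Nop16/Higd2a: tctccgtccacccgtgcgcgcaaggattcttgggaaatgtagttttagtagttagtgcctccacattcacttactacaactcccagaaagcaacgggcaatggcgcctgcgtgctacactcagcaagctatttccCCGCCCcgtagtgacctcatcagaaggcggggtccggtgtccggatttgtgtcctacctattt
Slf1/2210408I21Rik: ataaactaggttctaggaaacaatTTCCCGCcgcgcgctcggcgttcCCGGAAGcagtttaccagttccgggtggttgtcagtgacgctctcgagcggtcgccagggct

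The members furthest past the pileup threshold were named after their values were seen. Xab2/Pet100 (chr8:3621181-3621761) joins a repair and splicing factor with an assembly factor of cytochrome c oxidase. Its pileup was 189 and 39 tags in control and 55 and 34 in LysMCre+, a scaled change of −1.85 ± 0.22 (limma adjusted p = 0.0183). The local background was 7.34 and 2.84 tags in control and 2.68 and 1.58 in LysMCre+, and the change in fold enrichment was −0.47 ± 0.21 (limma adjusted p = 0.214). Atp5pb/Wdr77 (chr3:105958908-105959699), of which Atp5pb encodes a subunit of ATP synthase, had 83 and 20 tags, and 23 and 20 (−1.79 ± 0.24, limma adjusted p = 0.0183). Apaf1/Ikbip (chr10:91082534-91083184), of which Apaf1 forms the apoptosome, had 196 and 49 tags, and 83 and 40 (−1.63 ± 0.25, limma adjusted p = 0.0183). 1810024B03Rik/Snrnp200 (chr2:127208006-127208685), of which Snrnp200 encodes a helicase of the spliceosome, had 114 and 21 tags, and 45 and 20 (−1.57 ± 0.26, limma adjusted p = 0.0188). In all 4 pairs the replicate 1 libraries were the highest of their genotype and the raw pileups of the genotypes overlapped, so that the calls rest on the scaling by library.

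Among the named members, 6 regions had changes of opposite sign on the 2 measures, and Xrcc3/Zfyve21 had the largest values of them. Xrcc3/Zfyve21 (chr12:111813573-111814637) joins a recombination repair gene with an endosomal adaptor, and its summit lay 7.5 bp from the midpoint. Its pileup was 589 and 144 tags in control and 1072 and 753 in LysMCre+, the highest of all regions in both of the latter libraries. Its local background was 27.9 and 6.42 tags in control and 71.1 and 57.2 in LysMCre+. The log2 change was therefore 0.76 ± 0.22 on the pileup (limma adjusted p = 0.0568) and −0.89 ± 0.27 in fold enrichment (limma adjusted p = 0.0964), and neither passed. Without control replicate 3 the latter was −0.45. In control the highest member pileup was at Cdca2/Kctd9, with 662 and 161 tags.

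**Figure D5:**
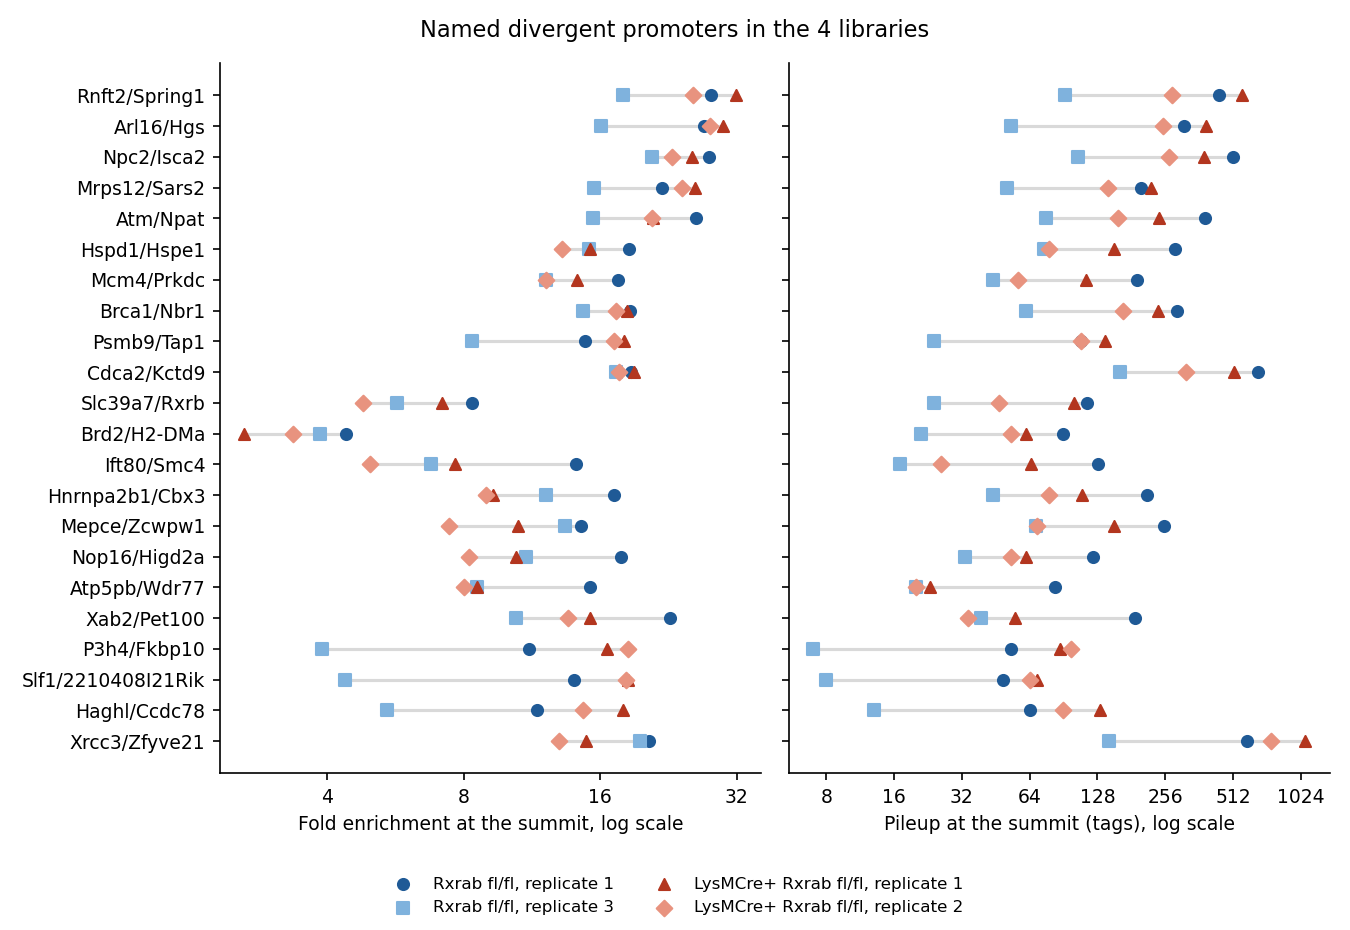
Fold enrichment (left) and pileup in tags (right) at the summit of 22 named divergent promoters in the 4 libraries, as deposited or solved and before any centring, on log axes; each point is 1 library and the grey line spans the 4. control replicate 3 is the lowest library on the pileup for most pairs, Ift80/Smc4 to Xab2/Pet100 have control replicate 1 at the top, and Xrcc3/Zfyve21 has the highest pileups, 1072 and 753, in LysMCre+.

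The promoter that Rxrb, a deleted gene, shares with the zinc transporter Slc39a7 was called in all 4 libraries (chr17:34031478-34032127). Its fold enrichment was 8.36 and 5.71 in control and 7.17 and 4.79 in LysMCre+, below the median of the members in each library. After centring the change was −0.60 ± 0.22 (limma adjusted p = 0.150), and the pileup of 115, 24, 101 and 47 tags gave −0.47 ± 0.24 (limma adjusted p = 0.209). The promoter thus remained open in cells whose Rxrb gene is targeted, and since peak lists do not show the deleted exons, it checks neither deletion nor transcript. No other gene of the retinoid and RXR partner list was in a pair.

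Among the textbook pairs, 9 met the rule with 10 regions, of which 8 were called in all 4 libraries. Hspd1/Hspe1 (chr1:55087511-55088507) encodes both components of the mitochondrial chaperonin, HSP60 and HSP10. Its fold enrichment was 18.5 and 15.1 in control and 15.2 and 13.2 in LysMCre+ (−0.61 ± 0.24, limma adjusted p = 0.171), and its pileup passed the threshold, with 282 and 74 tags against 151 and 78 (−1.28 ± 0.24, limma adjusted p = 0.0228). Mcm4/Prkdc (chr16:15637178-15638127), a subunit of the replicative helicase and the catalytic subunit of DNA-dependent protein kinase, had 17.5 and 12.2, and 14.2 and 12.1. Its pileup of 192 and 44 against 114 and 57 tags also passed (−1.05 ± 0.24, limma adjusted p = 0.0297).

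The other textbook pairs did not pass on either measure. Atm/Npat (chr9:53536523-53537241) had 26.1 and 15.4 in control and 20.9 and 20.8 in LysMCre+ (−0.31 ± 0.22, limma adjusted p = 0.414). Mrps12/Sars2 (chr7:28741672-28742426), the strongest of them, had 21.9 and 15.5, and 25.9 and 24.2 (0.08 ± 0.23). Psmb9/Tap1 (chr17:34187254-34188270) had 14.8 and 8.33, and 18.1 and 17.1, higher in both LysMCre+ libraries (0.30 ± 0.21, limma adjusted p = 0.426). Brca1/Nbr1 (chr11:101551810-101553158) had 18.6 and 14.7, and 18.3 and 17.4 (−0.26 ± 0.24). The Gart and Son ends of Gart/Son changed by −0.20 ± 0.24 and −0.10 ± 0.21. Hars/Hars2 (chr18:36782708-36783509), a cytosolic and a mitochondrial histidyl-tRNA synthetase whose TSSs are 4 bp apart, was called in every library but control replicate 3, at 16.7, 15.2 and 13.7. Psenen/U2af1l4 (chr7:30563123-30563416), of which Psenen encodes a subunit of gamma-secretase, had the same call pattern at 6.98, 5.77 and 5.65.

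Genes of replication and the cell cycle were in 39 pairs, all of which held a region, and 37 of 39 regions were called in all 4 libraries. The median log2 change of the 37 was −0.24 in fold enrichment and −0.44 on the pileup, beside the −0.24 and −0.37 of all members. None passed on fold enrichment, and 5 of the 37 passed on the pileup as higher in control, beside 9.33% of all members and 4.98% of all regions. DNA repair genes were in 41 pairs with 37 regions, 31 of them called in all 4, with medians of −0.26 and −0.41 and 2 passing on the pileup. Both control libraries lay above both others in 21 of 37 and 18 of 31 of these regions, and below them in 2 and 1, beside 52.3% and 10.3% of all members and 32.9% and 22.3% of all regions. The strongest repair pair was Xrcc4/Tmem167 (chr13:90089393-90089902), of which Xrcc4 holds DNA ligase IV at breaks, with 28.6 and 14.8, and 29.5 and 21.7. Histone genes were in 13 pairs, 12 of them of 2 histone genes, and 10 held a region called in all 4. Their fold enrichment was lower than that of the members as a whole, at medians of 13.8 and 6.95 in control and 10.6 and 10.1 in LysMCre+. H2ac12/H2bc12 (chr13:22035506-22036082) was the strongest, at 19.7 and 7.27, and 19.2 and 19.3. H2ac6/H2bc4 (chr13:23683743-23684368) had the largest change, with 19.8 and 14.0, and 15.1 and 11.1 (−0.73 ± 0.22, limma adjusted p = 0.0998). Reads of near-identical histone copies can be lost or misplaced, so these values are uncertain.

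Mitochondrial ribosomal protein genes were in 26 pairs, all with a region, and 19 of 27 regions were called in all 4 libraries, with a median change of −0.34 in fold enrichment. Mrpl18/Tcp1 (chr17:12915950-12916573), of which Tcp1 encodes a subunit of the cytosolic chaperonin, was the strongest, at 25.6 and 17, and 26.7 and 24.6. Mrpl49/Fau (chr19:6057584-6058062), of which Fau encodes a ribosomal protein fused to a ubiquitin-like one, changed most, from 11.4 and 8.54 to 8.40 and 5.49 (−0.91 ± 0.24, limma adjusted p = 0.0777). Respiratory chain genes were in 34 pairs with 33 regions, 30 of them called in all 4. Their median change was −0.14, and 5 of the 30 passed on the pileup as higher in control, among them Atp5pb/Wdr77 above, beside 9.33% of all members and 4.98% of all regions. Atp5md/Pdcd11 (chr19:47090410-47091028) was their strongest, at 21.7 and 12.9, and 22.8 and 16.5.

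Of the genes of protein synthesis and turnover, cytosolic ribosomal protein genes were in 11 pairs with 12 regions, 8 of them called in all 4, and medians of −0.25 and −0.53. Rpl15/Nkiras1 (chr14:18270875-18271529) was the strongest, at 26.2 and 14.8, and 24.9 and 21, and Rps18/Vps52 (chr17:33955542-33956188) changed most, from 9.84 and 5.62 to 6.22 and 5.77 (−0.68 ± 0.21, limma adjusted p = 0.103). Aminoacyl-tRNA synthetase genes were in 10 pairs, with 9 of 10 regions called in all 4. Theirs was the only list among 16 with a median change above 0, at 0.06 in fold enrichment, although the pileup median was −0.21. S100pbp/Yars (chr4:129188845-129190157) went against that, with 18.5 and 12.9, and 11.7 and 12.5 (−0.72 ± 0.24 in fold enrichment, adjusted p = 0.114, and −1.15 ± 0.26 on the pileup, adjusted p = 0.0296, both from limma). Proteasome genes were in 9 pairs with 9 regions, 8 of them called in all 4, and a median of −0.26. Psme3ip1/Rspry1 (chr8:94601536-94602214) was the strongest by the symbol rule, although its product is a partner of the proteasome activator and not a subunit. Mrpl32/Psma2 (chr13:14612883-14613578) passed on the pileup, with 173 and 32 against 76 and 41 tags (−1.28 ± 0.23, limma adjusted p = 0.0203).

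Zinc finger genes were in 23 pairs with 25 regions, 19 of them called in all 4, and a median of −0.16. Zfp654/Cggbp1 (chr16:64851540-64852428) was the strongest, at 25.8 and 20.4, and 24.4 and 20.4, and Zbtb25/Zbtb1 (chr12:76369153-76370711) changed most, from 11.2 and 8.86 to 7.98 and 6.54 (−0.83 ± 0.24, limma adjusted p = 0.0889). Genes of membrane and vesicle traffic were in 58 pairs, 56 of them with a region, and 50 of 57 regions were called in all 4, with a median of −0.18. Apoptosis genes were in 11 pairs with 8 of 11 regions called in all 4 and a median of −0.18. Apaf1/Ikbip changed most among them, from 19.2 and 13.2 to 13.5 and 8.72 (−0.92 ± 0.23 in fold enrichment, limma adjusted p = 0.0708). Fatty acid metabolism genes were in 13 pairs with 14 regions, 10 of them called in all 4, and medians of −0.28 and −0.54. Etfdh/4930579G24Rik (chr3:79628584-79629274), of which Etfdh passes electrons from fatty acid oxidation to the respiratory chain, had 24.1 and 19, and 20.7 and 19.1. Acot13/Tdp2 (chr13:24831280-24832135), of which Acot13 is an acyl-CoA thioesterase, changed from 19.7 and 11.0 to 15.4 and 11.5 (−0.51 ± 0.21, limma adjusted p = 0.175).

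Of the genes listed for peritoneal macrophages, 1 lay in a divergent coding pair. Cdca2/Kctd9 (chr14:67715544-67716315) joins a protein of mitotic chromosomes with a substrate adaptor of a ubiquitin ligase. Its fold enrichment was nearly the same in every library, at 18.7 and 17.3 in control and 19.0 and 17.6 in LysMCre+. After centring the libraries overlapped, with a change of −0.34 ± 0.27 in fold enrichment (limma adjusted p = 0.460) and −0.55 ± 0.22 on the pileup (limma adjusted p = 0.123). The paper placed Cdca2 among genes of proliferation and reported reduced accessibility there in LPMs without RXRs. Its measure was reads, which the peak lists do not hold, so the values here do not repeat that comparison.

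Genes listed for antigen presentation and interferon were in 5 pairs with 5 regions, of which 4 were called in all 4 libraries, with a median of −0.31 and a range from −0.84 to 0.30. The list is not complete. H2-T22/Gm6034 and Rfxank/Borcs8, whose regions were called in all 4 libraries, were not on it. Brd2/H2-DMa, described above, was at the lower end (−0.84 ± 0.29, limma adjusted p = 0.124) and Psmb9/Tap1 at the upper end. Psme2/Rnf31 (chr14:55590902-55591903), of which Psme2 encodes a subunit of the interferon-induced proteasome activator, had 16.2 and 13.4, and 15.0 and 13.5, and Bcl2l12/Irf3 (chr7:44997115-44998111), of which Irf3 turns on type I interferon, had 11.9 and 7.52, and 11.7 and 9.45. Ifit1bl2/Ifit1 (chr19:34640619-34641094), a pair of interferon-induced genes with similar sequence, was called in every library but control replicate 3, at 7.96 and then 10.7 and 10.5. The members of this list thus spread to both sides, and none passed on either measure.

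At the limit of the rule, the pair furthest apart was Zfyve26/Rad51b, with TSSs 1000 bp apart and fold enrichments of 13.9 and 8.89, and 16.3 and 13.0 at the Zfyve26 end (chr12:79295974-79296610). Next came Haghl/Ccdc78, with TSSs 994 bp apart (chr17:25785160-25785779), one of the 2 members past the pileup threshold as higher in LysMCre+, with 64 and 13 against 131 and 90 tags (1.05 ± 0.22, limma adjusted p = 0.0258). The other was P3h4/Fkbp10, with TSSs 978 bp apart, and both regions lay at the TSS of one gene and left the other uncovered. Just outside were Ddias/Prcp, with TSSs 1006 bp apart and fold enrichments of 18.7 and 12.9, and 13.6 and 11.9, and Sgsm2/Tsr1, with TSSs 1011 bp apart and 2 regions, both called in every library but control replicate 3.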

How the data were processed

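ATAC-seq peak lists of 4 libraries were analysed. The authors trimmed adaptors (cutadapt 1.7), aligned paired reads to mm10 (Bowtie2 4.1.2, versions per the submitters' processing notes), filtered out duplicate reads, poorly mapped reads and those from chromosomes X, Y and M, called peaks in each library separately with MACS2 2.1.1 (extension 200 bp, q value 0.05) and dropped blacklisted regions. The deposited lists give, for each peak, a fold enrichment at the summit (a ratio to the local background), −log10 values for p and for q (p-value and q-value), the summit's offset and an integer score, which was not used. Reads per region are not part of the lists, so the edgeR test that the authors ran through DiffBind was not repeated.

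TSSs came from RefSeq NM and NR transcripts of the mm10 assembly. Peaks sharing at least 1 bp were merged. Fold enrichments were put on the log2 scale, shifted to a common library median and fitted with limma 3.58.1 in R 4.3.3 over all regions called in all 4 libraries. No pseudocount was added beyond the 1 that MACS2 adds. The summit pileup was solved from fold enrichment and p-value as a whole number of tags. The limma step was tested on simulated data, and so was the pileup step. Sequence on chromosome 18 was not read. Sequences are printed for a few pairs, and not every named pair's sequence is reported here. The lists give no total read count, so depth is known only through the number of peaks and the background, and no counting interval is given. Other software was numpy 2.4.6, pandas 2.3.3 and scipy 1.17.1 under Python 3.11.15.

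Members, gene lists and tests were chosen with earlier results of these data known. Named were the 4 largest changes in each direction among non-overlapping members, the 5 strongest and 3 weakest members called in all 4 libraries, textbook pairs, the 4 strongest members called in one genotype only, 2 pairs on each side of the 1 kb limit, members of the peritoneal macrophage, antigen presentation and retinoid lists, and the strongest and most changed member of each list; any other name was chosen after its values were seen. Alternatives were the pileup, quantile normalization, no centring, regions called in at least 2 libraries, a q value of 0.01, a variance trend, the adjusted p alone, equal peak numbers, peaks reduced to their summits, TSS limits of 500 bp and 2 kb, other TSS sets and windows, and each library left out.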

Additional observations from a re-analysis of the deposited data

How the results depend on the processing

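No paired analysis was possible because the genotypes share only replicate number 1. The counts of members called on fold enrichment, 0 in each direction, also held after quantile normalization, with no centring, at a q value of 0.01, with the adjusted p alone and with TSS limits of 500 bp and 2 kb. As higher in control and in LysMCre+, 3 and 1 members were called with a variance trend (0.412% and 0.137%, against 0.5% and 0.401% of all regions), 1 and 1 with equal peak numbers (0.168% each, against 0.175% and 0.224%), 68 and 2 on the pileup, and 0 and 4 over regions called in at least 2 libraries, where regions not called are set to 1 and 11950 of 51742 regions were called. Leaving out a library gave 0 to 27 and 0 to 3 members, and on the pileup, an alternative chosen after seeing the data, 2 to 85 and 0 to 7 (in control, 61 without control replicate 3 and 58 without LysMCre+ replicate 1). The median of the members lay below that of all regions in every one of these fits, by 0.27 on the pileup, by 1.52 with regions called in at least 2 libraries and otherwise within 0.12 to 0.18, or within 0.16 to 0.34 on the pileup with a library left out. In log2 terms these are changes of −0.15 in the reported fit, −0.27 and −1.52, and from −0.18 to −0.12 and from −0.34 to −0.16 (−0.24 without control replicate 1 and −0.31 without control replicate 3). Members whose libraries did not overlap numbered 381 and 75 in the reported scaling, 343 and 90 after quantile normalization and 27 and 55 with no centring. Over all 15199 regions the counts were 4993 and 3395, 4482 and 3911, and 543 and 3139 in the same order. With a library left out, chosen after seeing the data, non-overlapping members numbered 432 to 532 and 106 to 141, where fewer libraries make non-overlap more frequent. These are 59.3% to 73.0% and 14.5% to 19.3% of members, against 40.4% to 54.0% and 29.7% to 36.0% of all regions.

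Members called in one genotype only, 0 in control and 7 in LysMCre+, became 62 and 2 with equal peak numbers, 16 and 16 with each peak cut to its summit and 100 bp on both sides, 0 and 4 with a TSS limit of 500 bp, and 1 and 21 with 2 kb. Leaving out a library gave 0 to 1 and 0 to 142, the latter without control replicate 1, where the short list of replicate 3 alone stands for control. For cut peaks and for lists with a library left out, shares over all regions are not given. Those counts therefore show nothing particular to members. With equal peak numbers the share of pairs with a peak was 84.3%, 73.8% and 69.6% in control replicate 1 and LysMCre+ replicates 1 and 2. The lead of members over one-gene promoters was 0.29 and 0.26 in control on the pileup. With the outermost TSSs 68.5% of summits lay between the TSSs. In windows of 200 bp, 62.4% of members held a GC box, 38.9% a CCAAT box, 26.8% an ETS match and 11.5% an NRF1 match, since a shorter window holds fewer letters. For other changes the cause was not tested. Of 50 named regions, none of which was called in the reported fit, 12 were called on the pileup, 4 with a variance trend, 11 without control replicate 1 and 15 on the pileup without it, and 14 changed sign with no centring. Without control replicate 3 the fold enrichment change was −0.46 at Brd2/H2-DMa, −0.28 at Hspd1/Hspe1, −0.31 at Mcm4/Prkdc and −0.53 at Zbtb25/Zbtb1, each moved by over 1.5 times. The limits are 2 libraries a genotype, the short peak list of control replicate 3, and peak lists in place of reads. A region missing from a list may therefore lie just under its threshold.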

Other observations

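Regions over 1 kb from any curated TSS, the distal class, were set beside the divergent promoters. Of 37467 such regions, 19.1% were called in all 4 libraries, against 83.2% of the divergent promoters. Their median width was 418 bp. The median log2 change of the 7150 called in all 4 was 0.02 in fold enrichment and 0.01 on the pileup, where the divergent promoters had −0.24 and −0.37. Their windows held AP-1 matches in 19.1%, PU.1 matches in 13.1% and GATA matches in 12.3%, and ETS matches in 3.09%.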
